A study of Mus musculus and Rattus norvegicus with 53 samples.

Results

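Schwann cells (SCs) of the nerve bridge (bSCs) were compared with SCs of the distal stump (dSCs) in single mouse sciatic nerves 8 days after transection. The 6 libraries, 3 of each region, were those labelled as single nerves of day 8, out of 53 samples in the series. Each bridge library carries the label of the same animal as a distal library, which gives 3 labelled pairs, from animals 24, 25 and 26. The mice carried a tdTomato reporter at Rosa26, switched on by a Cre transgene of the SC lineage, and were injured at 6 to 8 weeks of age. Both sexes were used. All libraries were made from polyA RNA of tdTomato+ sorted cells with Smart-seq2, which copies full-length cDNA from very little RNA and amplifies it by PCR. Cells in which the Cre was active earlier, and their descendants, keep the reporter, so the sort marks a lineage and not a present state. The labels do not give the sex of an animal.

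After a nerve is cut, SCs distal to the injury lose contact with axons, shed myelin genes and enter a repair state in which c-Jun, encoded by Jun, is a main regulator. In the distal stump these cells stay inside the old basal lamina tubes. In the bridge, the new tissue that joins the stumps, SCs migrate as cords along newly formed blood vessels among fibroblasts and macrophages. The comparison of bSCs with dSCs asks how the wound changes a cell that is already in the repair state, and day 8 is a later view of it than the day 6 of the pooled nerves of the same series.

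The day-8 libraries held between 9670055 and 18972269 counts on genes, and between 13133 and 15205 genes with at least 1 count. Reads are not independent molecules in Smart-seq2. Levels are given as CPM, the counts scaled to library size after correction by the trimmed mean of M-values (TMM). Summed over 8 SC markers, the 3 distal libraries held 2923, 3179 and 2821 CPM in the order of animals 24, 25 and 26, and the bridge libraries 1347, 482 and 2706 CPM. Of these sums, Ngfr alone held 1499, 1280 and 1392 CPM in the distal and 297, 152 and 1276 CPM in the bridge libraries. Ngfr is also among the genes of the repair state described below. Markers of other cells were present in all 6 libraries. Summed over 14 fibroblast markers the range was 36564 to 52931 CPM in the distal and 28679 to 59911 CPM in the bridge libraries, and over 17 macrophage markers 4540 to 9667 CPM and 4435 to 8850 CPM. Part of the fibroblast list (collagens, Dcn and Lum) is also made by SCs and by endoneurial cells of the same lineage.

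The libraries were checked against their labels before any comparison. Xist, the RNA of the silenced X chromosome, had 4870 counts in the distal library of animal 24 and between 1820 and 5291 counts in the 3 bridge libraries, with 0 counts on 4 Y-linked genes in each of these libraries. The distal libraries of animals 25 and 26 had 0 and 1 counts of Xist, and 4605 and 3580 counts on the Y-linked genes. Within animals 25 and 26, the libraries of the bridge and of the distal stump therefore went against the label of a shared animal, and sex and region are partly confounded at day 8. At day 6, 2 distal libraries held both Xist and Y-linked transcripts, with 3395 and 1741 counts in animal 21 and 1578 and 1248 counts in animal 22.

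Among the bridge libraries of day 8, the library labelled bridge, animal 26, also stood apart. A region score was computed for each single-nerve library as the mean log2 CPM of 225 genes called higher in bSCs than dSCs of the pooled nerves of day 6, minus the mean of 204 genes called lower. The pooled nerves share no library with the single nerves. The score was -0.50, 0.20 and -0.66 in the distal libraries of animals 24, 25 and 26, and 2.27 and 2.19 in the bridge libraries of animals 24 and 25. In the library labelled bridge, animal 26, it was -0.83, below all 3 distal libraries. Over 423 of these genes that were tested at day 8, its log2 CPM had a mean Pearson correlation (across genes, which are not replicates) of 0.58 with the other bridge libraries and 0.89 with the distal libraries. Whether the tissue, the sort or a label accounts for this cannot be told from the files, so the library is kept with its label. At day 4 the bridge library of animal 19 scored -0.37, below the 3 distal libraries of that day (0.20, -0.36 and -0.23). At day 10 the distal library of animal 27 scored 2.33, above the bridge library of animal 29 (2.10). These libraries were kept with their labels as well. The gene lists below are given with their medians within each labelled pair, or without a pair where that moves them, a choice made after the values were seen.

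**Figure D1:**
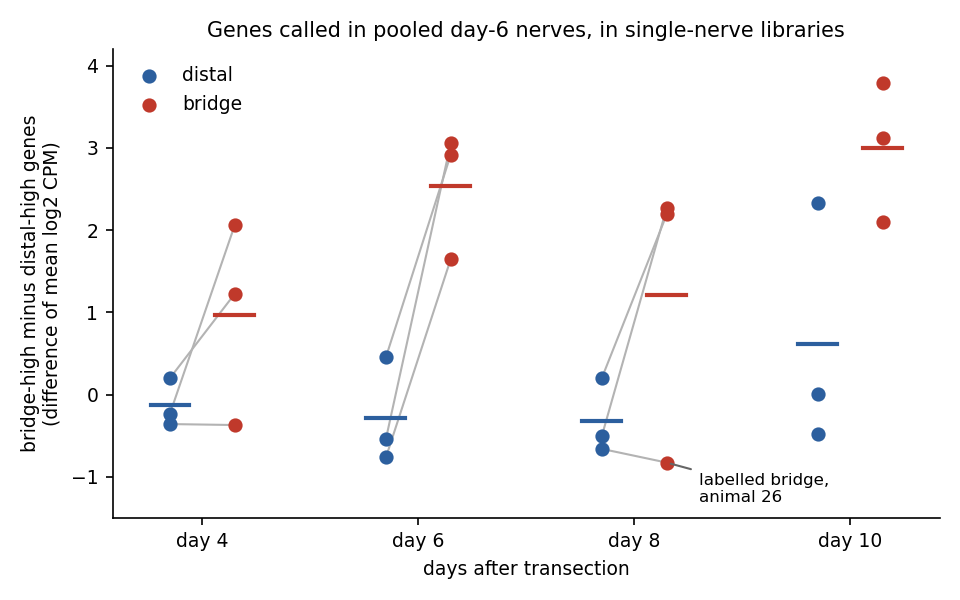
Region score of single-nerve libraries (vertical axis, difference of mean log2 CPM) by day after transection, with distal libraries in blue, bridge libraries in red, group means as short bars and grey lines joining libraries labelled with the same animal on days 4, 6 and 8. At day 8 the bridge libraries of animals 24 and 25 sit at 2.27 and 2.19, and the library labelled bridge, animal 26, sits at -0.83, below the 3 distal libraries of that day.

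No gene differed between bSCs and dSCs at day 8 at an adjusted p under 0.05. Of 10740 genes tested, 0 were called higher and 0 lower in bSCs by edgeR's quasi-likelihood test with the labelled animal as a block, and the smallest Benjamini-Hochberg adjusted p was 1.00. At an unadjusted p under 0.05 there were 387 genes, 3.60% of those tested, of which 155 (1.44%) were higher and 232 (2.16%) lower in bSCs. DESeq2 with the same block called 16 genes higher, Xist and its antisense partner Tsix among them, and 94 lower. In 62 of those 94 genes the bridge libraries of animals 24 and 25 were both at 1 CPM or less, and in 54 of the 94 the library labelled bridge, animal 26, lay above the lowest distal library.

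Leaving out the pair of animal 26 gave 0 calls by edgeR and 653 genes at an unadjusted p under 0.05, with 230 higher and 423 lower. A fit chosen after the values were seen left out the bridge library of animal 26 alone and had no animal block. Leaving out a bridge library with a distal-like region score favours genes that are low in the other bridge libraries. The fit called 0 genes higher and 3 lower in bSCs. These were Nipal1, a magnesium transporter (adjusted p = 0.00353, edgeR), Ccl11, the eosinophil chemokine eotaxin (adjusted p = 0.00653, edgeR), and Fetub, a secreted cystatin-family protease inhibitor (adjusted p = 0.00755, edgeR). Nipal1 was at 99.1, 97.8 and 174 CPM in the distal libraries, at 0 and 0 CPM in the bridge libraries of animals 24 and 25, and at 155 CPM in that labelled bridge, animal 26. Fetub was at 25.8, 58.0 and 69.2 CPM, at 0 and 0 CPM, and at 11.2 CPM in the same order. In the remaining text no gene is called in the comparison of all 6 libraries, and values are given as a description.

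The 10 genes with the smallest p among those higher in bSCs were Cd93, Stard4, C1qtnf3, Cdh5, Cyb561, Bst2, Rnf144a, Tie1, Dpt and Lgals3bp. Cd93, Cdh5 and Tie1 encode a surface glycoprotein, VE-cadherin and a receptor kinase of endothelial cells. Cd93 (chromosome 2, 148262376 to 148269299, build NCBIM37) was at 160, 224 and 61.0 CPM in the distal libraries of animals 24, 25 and 26, and at 458, 974 and 119 CPM in the bridge libraries. The bridge library was the higher in each labelled pair, but that of animal 26 lay below 2 of the distal libraries. Its log2 difference was 1.54 ± 0.34 (SE). In a fit without the animal block it was 1.80, and 1.24 with Y-linked transcripts as a covariate. Cdh5 was at 43.1, 64.6 and 18.3 CPM in the distal and 110, 248 and 43.1 CPM in the bridge libraries. Tie1 was at 23.6, 60.7 and 14.6 CPM in the distal and 166, 237 and 18.97 CPM in the bridge libraries, so that the pairs of animals 24 and 25 carried its difference.

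C1qtnf3, a secreted C1q/TNF-related protein (chromosome 15, 10882087 to 10909905, build NCBIM37), separated the regions in all 6 libraries. It was at 18.2, 12 and 8.95 CPM in the distal and 77.7, 59.2 and 43.0 CPM in the bridge libraries, a log2 difference of 2.22 ± 0.56 (SE). Its value in the library labelled bridge, animal 26, was the lowest of the bridge libraries and still above the highest distal library. Dpt, which encodes the matrix protein dermatopontin, was at 351, 99.5 and 367 CPM in the distal and 867, 605 and 689 CPM in the bridge libraries, with no overlap. Of all genes tested, 518 (4.82%) had all 3 bridge libraries above all 3 distal libraries and 657 (6.12%) had all 3 below. Bst2 (tetherin) and Lgals3bp, both induced by interferon, had log2 differences of 1.80 ± 0.48 and 1.11 ± 0.32 (SE). Stard4, a sterol carrier, was at 3.00, 20.2 and 0.41 CPM in the distal and 49.2, 61.7 and 9.89 CPM in the bridge libraries. Cyb561, a transmembrane cytochrome, and Rnf144a, a ubiquitin ligase, had log2 differences of 1.94 ± 0.50 and 1.69 ± 0.47 (SE).

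Among the 10 genes with the smallest p of those lower in bSCs were Slc2a1, Osr2, Gpc3, Trf, Ccl11, Rgs1, Steap2, Znf512b and Usp40. Slc2a1, the glucose transporter GLUT1 that is typical of perineurial cells and of nerve barriers (chromosome 4, 118781316 to 118809935, build NCBIM37), was at 130, 357 and 200.5 CPM in the distal and 28.2, 92.8 and 113 CPM in the bridge libraries. All 3 bridge libraries lay below all 3 distal libraries, and the log2 difference was -1.66 ± 0.33 (SE). Gpc3, a membrane-bound proteoglycan encoded on the X chromosome (49625603 to 49967127, build NCBIM37), was at 1396, 1542 and 2087 CPM in the distal and 390, 391 and 1182 CPM in the bridge libraries. Osr2, a zinc-finger transcription factor, was at 63.9, 111 and 166 CPM in the distal and 17.2, 17.97 and 62.7 CPM in the bridge libraries. For Slc2a1, Gpc3 and Osr2 the library labelled bridge, animal 26, was the highest of the bridge libraries and still below the lowest distal library.

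Trf, which encodes the iron carrier transferrin, was at 2274, 4361 and 5062 CPM in the distal and 163, 262 and 2268 CPM in the bridge libraries, a log2 difference of -3.07 ± 0.73 (SE). Ccl11 (chromosome 11, 81871325 to 81876457, build NCBIM37) was at 582, 645 and 696 CPM in the distal and 43.8, 24.97 and 463 CPM in the bridge libraries, a log2 difference of -3.11 ± 0.77 (SE). Without the pair of animal 26 the log2 differences were -3.93 for Trf and -4.21 for Ccl11. Rgs1, a regulator of G-protein signalling found in leukocytes, was at 62.4, 18.5 and 162 CPM in the distal and 3.92, 0 and 37.1 CPM in the bridge libraries, and overlapped through animal 26. Steap2, a metalloreductase, Znf512b, a zinc-finger protein, and Usp40, a deubiquitinase, had log2 differences of -1.62, -1.45 and -2.13. Their 3 labelled pairs were all negative.

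**Figure D2:**
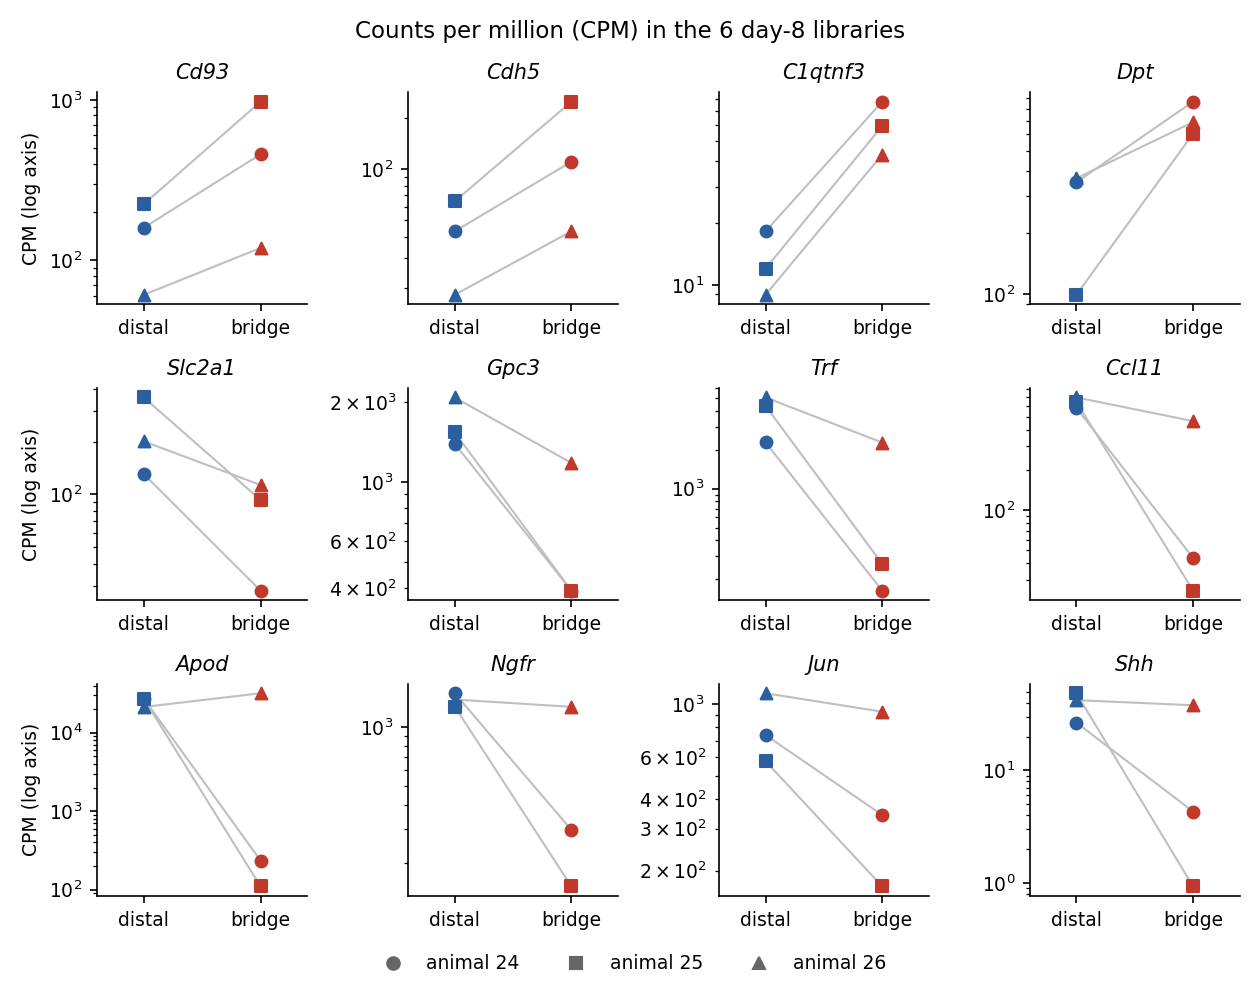
CPM (vertical axes, log scale) of 12 genes in the 3 distal libraries (blue) and the 3 bridge libraries (red) of day 8, with a marker shape for each labelled animal and grey lines joining its libraries. C1qtnf3 and Dpt separate the regions in all 6 libraries, whereas Apod, Ngfr, Jun and Shh are near the distal level in the library labelled bridge, animal 26.

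Differences of more than 4-fold were counted among the 10740 genes tested, for each choice of 2 bridge libraries. A gene was tested only where 3 or more of the 6 libraries reached 100 counts. Genes with such counts in only 2 bridge libraries were thus left out, so the numbers below and above cannot be set against each other. In 154 genes the bridge libraries of animals 24 and 25 were both more than 4-fold below each of the other 4 libraries (on log2 of CPM plus 1), and in 5 genes both were more than 4-fold above. For the bridge libraries of animals 24 and 26 the numbers were 4 and 0, and for those of animals 25 and 26 they were 7 and 0. Apod, a lipid-carrying apolipoprotein of injured nerves (chromosome 16, 31296278 to 31314894, build NCBIM37), was at 27170, 27067 and 21297 CPM in the distal libraries, at 234 and 110 CPM in the bridge libraries of animals 24 and 25, and at 31855 CPM in that labelled bridge, animal 26. Wif1, a secreted inhibitor of Wnt ligands, was at 516, 864 and 1610 CPM, at 0 and 0 CPM, and at 582 CPM in the same order. Matn4, a matrilin, was at 93.2, 129 and 214 CPM, at 0.28 and 0.25 CPM, and at 167 CPM. These genes were chosen after their values were seen. In the pooled nerves of day 6 the log2 difference of Apod was -6.26 and that of Wif1 was -4.99.

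Genes of the repair and immature SC state were low in the bridge libraries of animals 24 and 25 and near the distal level in animal 26. Of 32 list members tested, 0 were called, 7 had a positive and 25 a negative difference, and the median log2 difference was -0.98, beside -0.04 over all genes tested, of which 47.0% were positive. The list's median was -1.01, -1.66 and 0.14 within animals 24, 25 and 26. Without the pair of animal 26 it was -1.44. A lower level can reflect fewer cells of a type or less RNA per cell, which cannot be told apart in bulk samples.

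Among the transcription factors of the list, Jun was at 741, 576 and 1108 CPM in the distal and 342, 172 and 928 CPM in the bridge libraries. Sox2, a factor of immature SCs, was at 25.7, 11.5 and 14.6 CPM in the distal and 1.33, 0 and 49.8 CPM in the bridge libraries, so that animal 26 ran opposite to the other pairs. Atf3, an injury-induced factor, was at 401, 154 and 353 CPM in the distal and 23.5, 10.8 and 375 CPM in the bridge libraries. Runx2 had a log2 difference of -1.31 ± 0.53 (SE).

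Among the ligands and receptors, Ngfr, the p75 neurotrophin receptor, was at 1499, 1280 and 1392 CPM in the distal and 297, 152 and 1276 CPM in the bridge libraries, and in no pair was the bridge library the higher. Shh, the Sonic hedgehog ligand, was at 26.6, 48.6 and 42.2 CPM in the distal and 4.31, 0.93 and 38.0 CPM in the bridge libraries. The log2 differences of the trophic factors Gdnf, Artn and Bdnf were -1.01 ± 1.76, -2.74 ± 2.48 and -3.69 ± 2.58 (SE), all of them at 26 CPM or less in each library, and depend on how low counts are treated. Fgf5 was at 51.6, 25.3 and 31.97 CPM in the distal and 1.38, 4.13 and 19.6 CPM in the bridge libraries. Gap43, of growing axons and immature SCs, was at 38.4, 64.0 and 99.8 CPM in the distal and 35.2, 37.7 and 73.3 CPM in the bridge libraries.

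Genes of SC identity and myelin differed most within animal 25. Of 16 identity genes tested 7 were positive, with medians of -0.01, -1.44 and 0.33 within animals 24, 25 and 26, and a median of -0.31 over the fit. It was 0.16 without the pair of animal 25, and without that of animal 26 it was -0.86. Sox10, which SCs need throughout life, was at 133, 98.7 and 133 CPM in the distal and 84.6, 21.1 and 175 CPM in the bridge libraries. S100b was at 27.2, 9.04 and 14.6 CPM in the distal and 0.28, 0.59 and 31.2 CPM in the bridge libraries. Of 18 myelin genes 4 were positive, with medians of -0.01, -1.89 and 0.02 within the pairs. Leaving out the pair of animal 25 made 10 of the 18 positive, with a median of 0.08. Mbp, which encodes myelin basic protein, was at 52.0, 360 and 108 CPM in the distal and 172, 21.01 and 82.3 CPM in the bridge libraries, and its direction differed between the pairs. In 5 intact single nerves, scaled together with these libraries, Mbp ranged from 1652 to 10188 CPM (median 4266), above every day-8 library. The day-8 values given here were scaled without the intact nerves.

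The median of the inflammatory signals was lower in bSCs within each pair. Of 49 genes tested 37 were negative, the median log2 difference was -0.44, and it was -0.47, -0.54 and -0.42 within animals 24, 25 and 26. At an unadjusted p under 0.05, 6 (12.2%) were lower and 1 (2.04%) was higher, beside 2.16% and 1.44% of all genes tested, and 0 were called. Ccl2, which attracts monocytes, was at 347, 180 and 422 CPM in the distal and 22.4, 28.4 and 351 CPM in the bridge libraries. Spp1 (osteopontin) was at 1033, 1230 and 2609 CPM in the distal and 344, 258 and 1195 CPM in the bridge libraries. Nfkbiz, an NF-kB cofactor, and the cytokines Il33 and Il34 had log2 differences of -2.31 ± 0.75, -0.94 ± 0.36 and -1.41 ± 0.56 (SE). Ccl8 was at 264, 35.3 and 43.8 CPM in the distal and 104, 495 and 404 CPM in the bridge libraries. It was higher in the bridge library within animals 25 and 26, but lower within animal 24. Cxcl12 was at 241, 506 and 391 CPM in the distal and 591, 364 and 213 CPM in the bridge libraries, which overlap.

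The median of the genes of antigen presentation and the interferon response was higher in bSCs within each pair of day 8, but not in all other samples. Of 38 genes tested 33 were positive, the median log2 difference was 0.65, and it was 0.46, 1.12 and 0.30 within animals 24, 25 and 26. In single nerves of other days the median of the list was -0.27 at day 4, -0.09 at day 6 and 0.41 at day 10. In the pooled nerves of day 6 it was -0.55. Without the pair of animal 26, 35 of the 38 were positive, with a median of 0.91. At an unadjusted p under 0.05, 7 (18.4%) were higher and 0 lower, beside 1.44% and 2.16% of all genes tested, and 0 were called. B2m, the light chain of MHC class I, was at 1236, 1266 and 501 CPM in the distal and 1800, 3435 and 1429 CPM in the bridge libraries, with no overlap. Psmb8 and Psmb9, subunits of the immunoproteasome, had log2 differences of 0.97 ± 0.30 and 1.25 ± 0.53 (SE), and H2-D1, an MHC class I heavy chain, of 0.83 ± 0.35 (SE). MHC genes have near-identical copies, so the counts of H2-D1 are uncertain. The class II genes H2-Aa and H2-Ab1 were at 399, 174 and 549 CPM and at 709, 545 and 1223 CPM in the distal libraries, and at 432, 608 and 324.5 CPM and at 843, 1328 and 721.5 CPM in the bridge libraries, and overlap. The median of the list was 0.33 without the pair of animal 25, with 28 of 38 positive. Markers of other cells moved with the list in part of the pairs. All 17 macrophage markers were higher in the bridge library within animal 25, 1 of 17 within animal 24 and 9 of 17 within animal 26. The summed endothelial markers were higher in the bridge library within animals 24 and 25 and lower within animal 26. The part of either in the list was not tested.

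Extracellular matrix genes split into both directions. Of 87 genes tested 44 were positive, the median was 0.02, and 9 were higher and 7 lower at an unadjusted p under 0.05. The medians within animals 24, 25 and 26 were 0.48, -0.08 and -0.37. The median was -0.27 without the pair of animal 24, with 3 higher and 8 lower, and without that of animal 26 it was 0.12, with 15 higher and 12 lower. Higher in bSCs were Col12a1, a fibril-associated collagen (log2 difference 2.02 ± 0.65, SE), Ctgf, a matricellular target of TGF-β (1.22 ± 0.37) and Postn, periostin (1.08 ± 0.43). Postn was at 1819, 826 and 1363 CPM in the distal and 6522, 2589 and 1095 CPM in the bridge libraries, and its pair of animal 26 was negative. Ctgf was at 55.2, 44.6 and 38.8 CPM in the distal and 156, 92.7 and 83.5 CPM in the bridge libraries, with no overlap. Lower in bSCs were the small proteoglycans Dcn, Lum and Prelp. Dcn (decorin) was at 11809, 14814 and 17923 CPM in the distal and 6757, 3908 and 11461 CPM in the bridge libraries, with no overlap. Thbs4 (thrombospondin 4) was at 897, 679 and 1694 CPM in the distal and 165, 77.3 and 986 CPM in the bridge libraries. Tnc (tenascin C) was at 672, 1131 and 776 CPM in the distal and 1559, 500.2 and 610.5 CPM in the bridge libraries, and Fn1 (fibronectin) at 1947, 1389 and 2905 CPM and at 2715, 1456 and 1695 CPM. For Tnc and Fn1 the groups overlap and the pairs differ in sign.

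The mesenchymal genes of the epithelial-mesenchymal transition were positive in 42 of 63, with a median of 0.24 and medians of 0.66, 0.18 and -0.38 within animals 24, 25 and 26. Leaving out the pair of animal 24 gave a median of -0.05, with 28 positive. At an unadjusted p under 0.05, 3 (4.76%) were higher and 2 (3.17%) lower, beside 1.44% and 2.16% of all genes tested. The lower genes were Mmp2, a gelatinase, with a log2 difference of -0.89 ± 0.26 (SE), and Tgfbi, a matrix protein named for its induction by TGF-β, with one of -1.19 ± 0.45 (SE). Of 33 genes of the TGF-β pathway 20 were positive, with a median of 0.25, which was 0.10 without the pair of animal 26. Tgfbr2, the type II receptor, was at 450, 223 and 452 CPM in the distal and 423, 442 and 470.2 CPM in the bridge libraries. Tgfb1 had fewer than 100 counts in each day-8 library and was not tested. Of 93 mouse genes with the symbols that the study chose as raised by TGFβ in cultured rat SCs, 47 were positive, with a median of 0.01, and of 30 chosen as lowered 22 were negative, with a median of -0.69, which was -0.46, -0.97 and 0.16 within the pairs.

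Of 55 genes of adhesion and Eph-ephrin contact 28 were positive, with a median of 0.00. Cdh2 (N-cadherin) was at 49.9, 20.9 and 31.0 CPM in the distal and 40.2, 49.4 and 48.8 CPM in the bridge libraries, a log2 difference of 0.53 ± 0.64 (SE). Ephb2, a receptor that sorts SCs from fibroblasts, was at 20.04, 13.1 and 9.19 CPM in the distal and 21.1, 12.6 and 10.6 CPM in the bridge libraries, a log2 difference of 0.07 ± 0.72 (SE). The groups overlap for Cdh2 and for Ephb2, and the standard errors leave room for differences in either direction. Efnb2, its ligand ephrin-B2, was at 42.3, 35.8 and 59.96 CPM and at 21.98, 33.7 and 48.8 CPM. Itgb8 and Itga7, integrin chains, had log2 differences of -2.34 ± 0.70 and -1.98 ± 0.88 (SE), and the pair of animal 26 was near 0 for Itga7. Cdh1 (E-cadherin) was not tested and had between 0 and 113 counts.

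The medians of the mitosis and S phase genes were higher in the bridge libraries of animals 24 and 25. The median of the G1 regulators, described below, was lower in the bridge library of each pair. Of 63 mitosis genes 55 were positive, with a median of 0.44, and within animals 24, 25 and 26 it was 0.91, 0.83 and -0.13. Of 45 S phase genes 33 were positive, with a median of 0.28, and within the pairs it was 1.02, 0.53 and -0.52. Without the pair of animal 26 the medians were 0.95 and 0.72, and without that of animal 24 they were 0.11 and 0.06. Mcm4, a subunit of the replicative helicase, was at 34.5, 26.2 and 26.3 CPM in the distal and 146, 89.6 and 39.9 CPM in the bridge libraries, with no overlap. Tpx2, a spindle factor, was at 13.7, 13.1 and 0.16 CPM in the distal and 43.6, 60.3 and 29.6 CPM in the bridge libraries. Mki67, the Ki-67 antigen of cycling cells, was at 24.5, 32.2 and 13.02 CPM in the distal and 22.8, 41.9 and 19.6 CPM in the bridge libraries, and Ccnd1 (cyclin D1) at 419, 407 and 391.6 CPM and at 283, 290 and 413 CPM. The groups overlap for both. Myc was lower in each bridge library than in the distal library of its pair, with a log2 difference of -0.58 ± 0.42 (SE). Hmga2 was at 31.8, 11.1 and 15.2 CPM in the distal and 0.66, 2.36 and 21.1 CPM in the bridge libraries.

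Of 21 genes of cholesterol synthesis 18 were positive, with a median of 0.46 and medians of 0.68, 0.81 and 0.23 within animals 24, 25 and 26. Of 75 genes of oxidative phosphorylation 72 were positive, with a median of 0.69, but the pairs were far apart, at -0.61, 0.83 and 2.48. Without the pair of animal 26, 38 of the 75 were positive, with a median of 0.05. At an unadjusted p under 0.05, where 1.44% of all genes tested were higher, 1 of the 75 (1.33%) was higher. This was Ndufb5, a subunit of complex I, at 69.0, 44.5 and 10.25 CPM in the distal and 70.1, 97.8 and 75.2 CPM in the bridge libraries, where the distal library of animal 26 was the lowest. Of 35 genes of glycolysis and hypoxia 17 were positive, with a median of -0.01. Adm (adrenomedullin) and Pfkfb3 had log2 differences of -1.25 ± 0.46 and -2.28 ± 0.84 (SE).

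In the lists not yet described the median log2 difference was -0.46 for 13 G1 regulators, 0.20 for 51 genes of MYC and ribosome biogenesis, -0.27 for 26 of complement and coagulation, -0.05 for 38 proteases and inhibitors, -0.12 for 48 of lysosome and phagocytosis, -0.44 for 51 axon and growth factor signals and -0.33 for 41 transcription factors of injury. Within animals 24, 25 and 26 the median of the G1 regulators was -0.57, -0.49 and -0.20. No member of these lists was called. Without the pair of animal 26 complement and coagulation had a median of 0.04, with 14 of 26 positive, and proteases and inhibitors one of 0.17, with 25 of 38 positive, so that both turned in sign. The G1 regulators were then at -0.25 and the transcription factors of injury at -0.60, and 51 genes of MYC and ribosome biogenesis were at 0.05 without the pair of animal 24. For 29 immediate-early and heat-shock genes, which tissue dissociation can induce, the median was -0.58, with 22 of them negative and medians of -0.46, -0.71 and -0.26 within the pairs. The part of dissociation in the lower Jun, Atf3 and inflammatory signals was not tested. List genes named here that are neither among the 20 with the smallest p nor among genes followed by the study were taken from those with an unadjusted p under 0.05, or picked as examples, after their values were seen.

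Markers of endothelial cells were higher in bSCs for all 12 genes tested, with a median of 1.18. At an unadjusted p under 0.05, 4 of them (33.3%) were higher, beside 1.44% of all genes tested. These were Cdh5, Tie1, Emcn and Pecam1. Summed, the 12 markers were at 684, 2532 and 663 CPM in the distal and 3952, 5724 and 627 CPM in the bridge libraries. The bridge libraries of animals 24 and 25 lay above every distal library, and that of animal 26 lay below them. The within-pair medians were 2.35, 1.19 and 0.20, and without the pair of animal 24 the median was 0.42. In a fit without the animal block it was 1.41, with 2 markers at an unadjusted p under 0.05. With Y-linked transcripts as a covariate in that fit it was 0.47, with 10 of 12 positive and 0 at that p. On other days the median was -0.13 (day 4), 0.77 (day 6) and 0.12 (day 10), and it was 1.33 in the pooled nerves. Pecam1 was at 94.2, 316 and 90.3 CPM in the distal and 659, 1028 and 76.8 CPM in the bridge libraries. What part endothelial RNA has in the other lists was not tested.

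Markers of perineurial cells were lower in bSCs for all 8 genes tested, with a median of -1.35, and within animals 24, 25 and 26 it was -1.65, -1.83 and -0.85. Summed, they were at 696, 1115 and 851 CPM in the distal and 315, 427 and 480 CPM in the bridge libraries, with no overlap. Krt19 was at 21.6, 70.2 and 31.3 CPM in the distal and 0.28, 0 and 6.03 CPM in the bridge libraries, and Msln (mesothelin) at 44.0, 39.8 and 112 CPM and at 0, 0.08 and 13.9 CPM.

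Of 17 macrophage markers 13 were positive, with a median of 0.33, and within the pairs it was -0.68, 1.14 and 0.17. The median was -0.07 without the pair of animal 25, with 5 of 17 positive. Fibroblast markers split into both directions. Of 14 tested, 9 were positive, with a median of 0.49, and within the pairs it was 0.76, 0.29 and -0.26, and it was 0.16 without the pair of animal 24. Dpt was the 1 marker higher, and Dcn, Lum and Thy1 the 3 lower, at an unadjusted p under 0.05. Of all genes tested 1.44% were higher and 2.16% lower at that p. The groups did not overlap for 3 higher and 4 lower markers, beside 4.82% and 6.12% of all genes tested. Thy1 was at 54.3, 32.5 and 80.0 CPM in the distal and 21.9, 6.75 and 19.3 CPM in the bridge libraries. Of 10 mural cell markers 6 were positive, with a median of 0.33, and within the pairs it was 1.42, -1.003 and 0.08. It was -0.31 without the pair of animal 24, with 2 of 10 positive. The 6 erythroid markers summed to at most 1.81 CPM and the 10 lymphocyte markers to at most 18.8 CPM in any day-8 library, and 5 and 6 of them were at 0 in all 6 libraries. The sums were at most 34.2 CPM for 6 neutrophil, 46.1 CPM for 10 muscle and 84.5 CPM for 9 neuron markers. Of the 7 adipocyte markers only Fabp4, which endothelial cells also make, passed 30 CPM. It was at 77.5, 92.0 and 6.75 CPM in the distal and 217, 540 and 81.5 CPM in the bridge libraries.

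**Figure D3:**
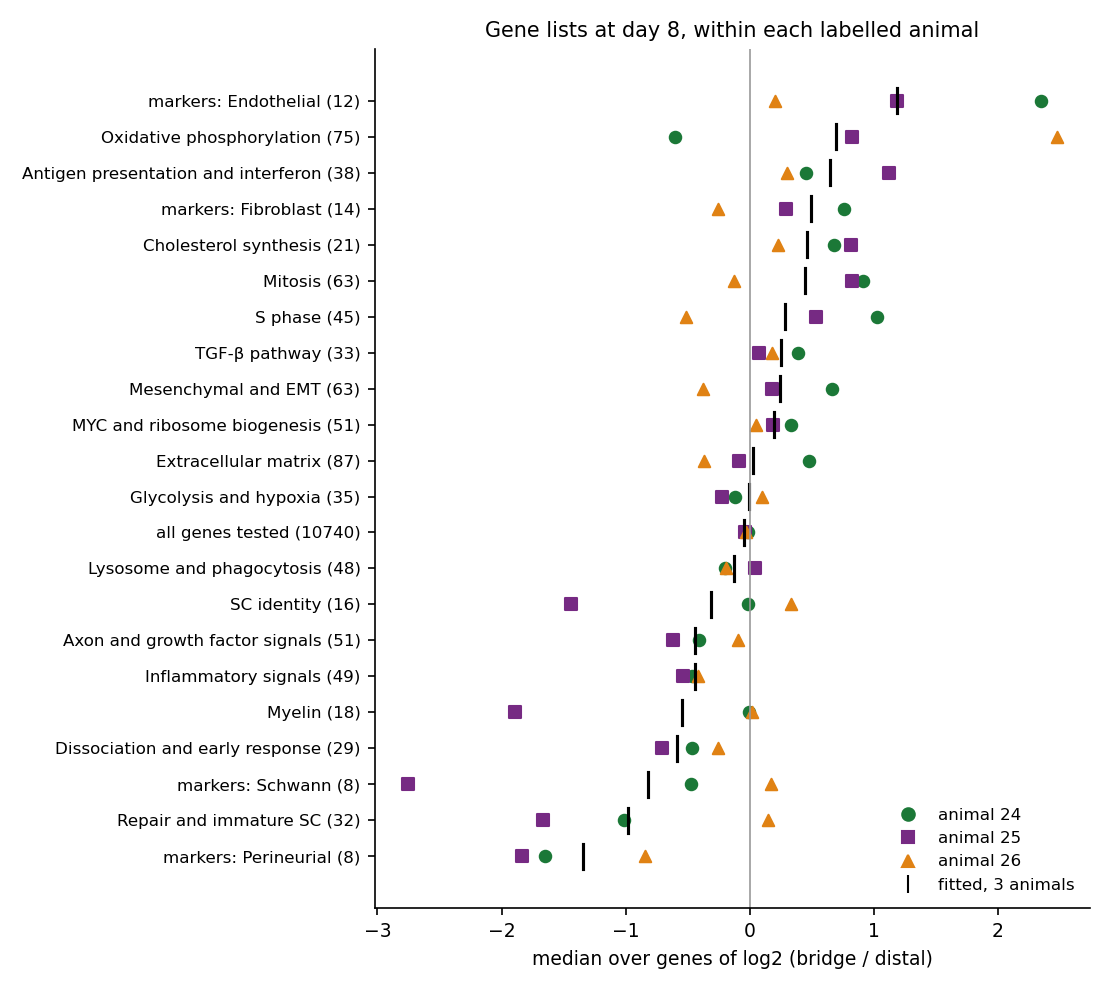
Median over genes of the log2 difference between bridge and distal library (horizontal axis) for 21 gene lists and for all genes tested, within each labelled animal (coloured marker shapes) and as fitted over the 3 animals (black bars). Numbers in brackets are genes tested. Repair and immature SC genes are negative in animals 24 and 25 (-1.01 and -1.66) and at 0.14 in animal 26, while inflammatory signals and perineurial markers are negative in all 3.

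The genes called in the pooled nerves of day 6 had set medians of the same direction at day 8 in animals 24 and 25. In the pooled nerves, which hold other animals and 4 libraries per region, 429 of 10459 genes tested (4.1%) differed at an adjusted p under 0.05 (edgeR). Of the 225 called higher in bSCs, 223 were tested at day 8, where 175 (78.5%) were positive, with a median of 0.33. Of the 204 called lower, 200 were tested and 167 were negative, with a median of -0.75. The within-pair medians of the genes called higher were 0.79, 0.32 and -0.15, and those of the genes called lower were -1.21, -1.05 and -0.14. In the pair of animal 26 the medians of both sets were thus close to each other and to 0.

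**Figure D4:**
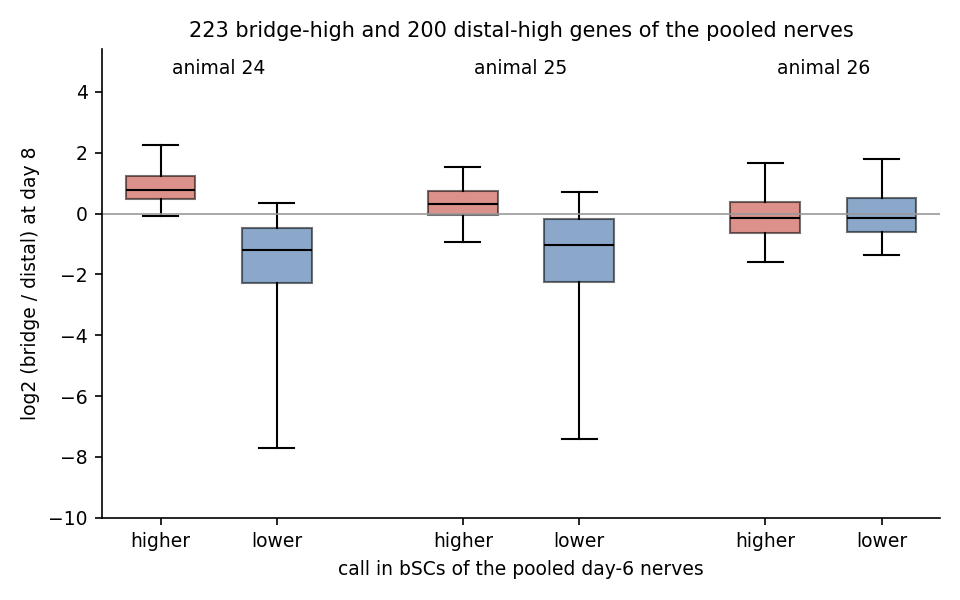
Log2 difference between bridge and distal library at day 8 (vertical axis) within each labelled animal, for 223 genes called higher (red) and 200 called lower (blue) in bSCs of the pooled day-6 nerves. Boxes hold the quartiles with the median as a line, and whiskers reach from the 5th to the 95th percentile. The medians are 0.79 and -1.21 in animal 24, 0.32 and -1.05 in animal 25, and -0.15 and -0.14 in animal 26.

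Single genes were compared by sign with other samples, of which the libraries of days 4 and 6 share the estimate of the spread with day 8 and those of day 10 and the pooled nerves do not. Of the 387 genes at an unadjusted p under 0.05 at day 8, 371 were tested in the pooled nerves and 293 of them (79.0%) had the same sign there, beside 61.1% of all 10000 genes tested in both. The shares were 71.3% at day 4, 77.3% at day 6 and 71.9% at day 10 in single nerves of other animals. They stand beside 60.7%, 54.7% and 59.2% of all genes. The bridge library of animal 19 at day 4 had a distal-like region score. The distal library of animal 27 at day 10 had a bridge-like one. At day 4 and day 6 edgeR also called 0 genes. At an unadjusted p under 0.05, 202 genes passed at day 4 and 1517 at day 6. C1qtnf3 had log2 differences of -0.03, 2.71 and 2.52 at days 4, 6 and 10 and of 2.98 in the pooled nerves. Trf had -0.49, -3.05, -3.18 and -3.20, Ccl11 had -0.35, -3.95, -3.49 and -4.53, and Gpc3 had 0.19, -1.11, -1.97 and -2.90 in the same order. In the pooled nerves Cd93, Cdh5 and Tie1 had 0.13, 0.06 and 1.27, and Bst2 and Lgals3bp had -0.08 and -0.59. Dpt had -1.41 in the pooled nerves and -2.39 at day 10, against 1.60 at day 8.

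The 7 clusters of genes that the study formed from ratios among regions in the pooled nerves, and whose direction there is thus given by their choice, were also followed. In the clusters numbered 2 and 6, 100 of 134 and 63 of 97 genes were positive at day 8, with medians of 0.36 and 0.24, which were 0.09 and -0.14 without the pair of animal 24. In clusters 1, 3, 4, 5 and 7 the medians were -0.60, -1.23, -2.43, -0.63 and -3.27, and all 20 genes of cluster 7 were negative. Within animal 26 the medians of these 5 clusters were between -0.55 and 0.01. Without its pair, the median of cluster 7 was -5.07.

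Whether the difference between bSCs and dSCs at day 8 departs from that of days 4 and 6 was tested in the same fit. The day-4 side of this test includes the bridge library of animal 19, with its distal-like region score. By edgeR 0 of 10740 genes passed at an adjusted p under 0.05 and 272 at an unadjusted p under 0.05 (2.53%), and DESeq2 called 12. The smallest p in each direction belonged to Cdh5 and to Kctd11, a cullin adaptor. The log2 difference of Cdh5 was -0.72, 0.23 and 1.51 at days 4, 6 and 8, and that of Kctd11 was 0.90, 1.84 and -0.75. Kctd11 was at 94.0, 65.0 and 117 CPM in the distal and 94.2, 28.6 and 56.3 CPM in the bridge libraries of day 8, so that animal 24 showed no difference.

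Levels in 5 intact single nerves, given as lowest, median and highest, place the day-8 values. Ngfr was at 27.8, 48.4 and 131 CPM in intact nerves, below all 6 day-8 libraries. Shh was at 0.38, 1.41 and 3.08 CPM, so that the bridge library of animal 25 fell in the intact range and the other 5 lay above it. Slc2a1 was at 516, 719 and 1394 CPM in intact nerves, above all 6. Tnc and Postn were at 0.19, 8.41 and 30.5 CPM and at 19.4, 157 and 940 CPM, and Tnc lay above the intact range in all 6 libraries. Ccl2 was at 14.1, 85.2 and 146 CPM, a range that held the bridge libraries of animals 24 and 25 and lay below the other 4. These comparisons with intact nerves were not tested here. The day-8 values were scaled without the intact nerves, so the scales are not identical and narrow margins are uncertain.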

How the data were processed

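Sorted SCs of single nerves were sequenced after Smart-seq2. The values deposited by the authors are raw counts per gene, which they obtained from TopHat2 2.0.11 alignments to mm9 using HTSeq. Here rows of HTSeq categories and of 92 ERCC spike-ins were dropped, which left 24016 genes. A gene was tested where 3 or more of the 6 day-8 libraries reached 100 counts. Of these, 27 passed through the bridge and 40 through the distal libraries alone. The 18 bridge and distal libraries of days 4, 6 and 8 (9 labelled animals) entered 1 fit in edgeR 4.0.16 (R 4.3.3) with TMM scaling, an animal block and a bridge effect per day, tested by quasi-likelihood with 6 residual degrees of freedom and Benjamini-Hochberg adjustment at 0.05. Day 10 and the pooled nerves were fitted apart, without a block. Day 10 stayed out of the block because the labels of a bridge library name 2 animals. SEs are those implied by the F statistic, and within-pair differences use a prior count of 2. DESeq2 1.42.0 was an alternative. P-values rest on the spread between animals as labelled.

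The deviations of same-animal libraries from their group means correlated at -0.14, 0.16 and 0.09 at day 8 (animals 24, 25 and 26), 0.45, 0.67 and 0.11 at day 4 and 0.05, 0.03 and 0.22 at day 6. Bridge and distal libraries of different animals at day 8 correlated at -0.27 to 0.17, so no same-animal value exceeded the highest of these. The pairing comes from the labels, and sex-linked transcripts go against it in animals 25 and 26.

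Genes and lists were chosen with earlier results of these data known. Named were the 10 genes with the smallest p in each direction, since none passed, and genes the study follows. Some of these genes are not reported here. Scripts were tested on simulated data. Positions are from GENCODE M1 (NCBIM37, the same assembly as mm9).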

Additional observations from a re-analysis of the deposited data

Results flagged for a closer look

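Differences that ran one way in all 3 animals of day 8 and the other way in all 3 animals of another day were flagged, without a test of the difference between days beyond the fit described above, in which none passed. The median log2 difference of the 2 adipocyte markers tested, Fabp4 and Car3, was 1.65 at day 8 and -6.21 at day 6, and Car3 was at 23.7, 8.14 and 0 CPM in the distal and 26.5, 2.11 and 6.17 CPM in the bridge libraries of day 8. Gpc3 had a log2 difference of -1.55 at day 8 and 0.19 at day 4. Steap2 had -1.62 at day 8 and 0.73 at day 6. Usp40 had -2.13 at day 8 and 0.57 at day 4.

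Among the 5 intact single nerves, a library lay far from the others by Dixon's ratio for 3 of 25 genes followed by the study. The ratio's chance rate of about 1 group in 20 holds for normally distributed values, and not for genes at 0 CPM in most libraries. The number of flags is therefore not set against it. Mki67 was at 51.9 CPM in the flagged library beside a median of 0.16 CPM. Gdnf was at 2.72 CPM and Bdnf at 0.052 CPM, each beside a median of 0 CPM, so that their flags rest on values near the floor.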

How the results depend on the processing

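With all 6 libraries the count of 0 called genes held in edgeR with size factors of DESeq2, no filter, the filter of the study, filterByExpr, robust dispersion, no replicate block, day 8 alone with the block, all single-nerve libraries, a Y-linked covariate, and days 4 and 8 only. The pairing by animal rests on the labels, since the deviations of same-animal libraries did not all correlate above 0.1. Without the replicate block 0 genes were called and 192, not 387, had an unadjusted p under 0.05. That count was 65 with all single-nerve libraries, 187 with the Y-linked covariate and 867 by DESeq2. Adding the Y-linked covariate to the fit without the block moved list medians in both directions. The endothelial markers went from 1.41 to 0.47 and the inflammatory signals from -0.39 to -0.16. Antigen presentation and interferon went from 0.61 to 0.85 and the perineurial markers from -0.97 to -1.69. DESeq2 called 16 higher, 94 lower, 12 that differed from days 4 and 6, and 60 genes of the lists.

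Leaving out a replicate called 0 genes in each direction and 0 to 1 that differed from days 4 and 6, the single gene without animal 24, and moved the unadjusted count from 110 (without animal 25) to 653 (without animal 26). Without animal 24, 299 of 426 such genes were higher, a turn of the balance. The share of day-8 genes with the same sign in pooled nerves ranged from 69.0% to 83.4%. Without the bridge library of animal 26 and without the block, an alternative chosen after seeing the data like the covariate, animal 24 alone and the restriction to days 4 and 8, 3 genes were lower, 1 differed from days 4 and 6, and 3 list genes were called. The common biological coefficient of variation was 0.652, a spread that limits what 3 animals can show.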
